A study of Arabidopsis thaliana with 14 samples.

Results

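The 3′ part of intron 1 of *FLC* was described from the nucleosomal fragments whose midpoints lie in it. It covers bases 3175662 to 3177048 of chromosome 5 (TAIR10, 1387 bp) and lies 2400 to 3786 bp downstream of the transcription start site (TSS, 3179448) on the minus strand. It ends at the border with exon 2 (3175604 to 3175661). The stretch is wholly intronic for *FLC*, makes up 39.7% of the 3493 bp of intron 1 and 14.5% of the 9568 bp enriched around the gene, and was overlapped by 37 of the 237 *FLC* baits. The annotated antisense gene AT5G01675 (3173371 to 3179600, plus strand) spans all of it. A fragment entered when the middle of its first and last base fell inside these borders. This gave 158729 of 1039765 entries (15.3%), where an entry is 1 distinct fragment in 1 library. They came from 36849 distinct pairs of start and end, of which 567 were found in all 14 libraries and 11338 in 1 library only.

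Nucleosomes were mapped in Arabidopsis seedlings of 2 genotypes, each sampled in the warm and after cold for 1 week (1W cold). There were 4 libraries of *vrn1-4* FRI 1W cold, 3 of *vrn1-4* FRI warm, 4 of WT FRI 1W cold and 3 of WT FRI warm. All plants were Col-0 carrying a functional *FRIGIDA* allele introgressed from San Feliu-2. They were grown for 10 days at 22 °C (warm), and the 1W cold groups then spent 1 week at 5 °C, so cold seedlings were also older. The mutant is represented by a single allele from fast-neutron mutagenesis, and whole seedlings were ground, so the cell types of a seedling are averaged.

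*FLC* encodes a MADS-box repressor of flowering that is activated by FRIGIDA and silenced by prolonged cold, the process called vernalisation. VRN1 is a plant DNA-binding protein with B3 domains that is required to keep *FLC* silent. Intron 1 is long and holds elements that act in this silencing, which begins at the other end of the intron, around exon 1. A nucleosome is a core of histones with DNA wrapped around it, and micrococcal nuclease (MNase) removes the DNA between nucleosomes, so the ends of a protected fragment mark the borders of a nucleosome and its midpoint the centre. MNase also cuts DNA rich in A and T more readily than other DNA, and it trims the ends of protected DNA when digestion goes further.

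Sequences are printed for the 2 nucleosome positions of the stretch with the most and the fewest fragments on average over all 14 libraries (2514 and 2752 bp from the TSS), for the 100 bp with the lowest coverage and for the most frequent fragment at the border with exon 2, because the values of these places are described in the results. Within single groups the order was another: in WT FRI warm the position at 3758 bp held more fragments than the one at 2514 bp, and fewer than at 2752 bp lay at 3338 bp in WT FRI 1W cold and at 3220 bp in WT FRI warm. They are given 5′ to 3′ on the strand of *FLC* (the minus strand of chromosome 5, NCBI RefSeq TAIR10.1, which has the TAIR10 coordinates). Capitals mark every run of 5 or more A or of 5 or more T.
Nucleosome at 2514 bp, chr5:3176864-3177004, centred 2514 bp from the TSS: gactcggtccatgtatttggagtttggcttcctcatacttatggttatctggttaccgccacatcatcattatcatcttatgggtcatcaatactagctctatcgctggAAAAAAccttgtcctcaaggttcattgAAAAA
Nucleosome at 2752 bp, chr5:3176626-3176766, centred 2752 bp from the TSS: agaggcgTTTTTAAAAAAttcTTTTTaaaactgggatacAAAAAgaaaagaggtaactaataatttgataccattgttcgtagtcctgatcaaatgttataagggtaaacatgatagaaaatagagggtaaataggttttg
Lowest coverage, chr5:3175853-3175952, 3496 to 3595 bp from the TSS: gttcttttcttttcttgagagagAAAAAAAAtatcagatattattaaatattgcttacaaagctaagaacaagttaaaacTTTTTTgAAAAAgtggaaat
Fragment at the border with exon 2, chr5:3175620-3175761, 3687 to 3828 bp from the TSS: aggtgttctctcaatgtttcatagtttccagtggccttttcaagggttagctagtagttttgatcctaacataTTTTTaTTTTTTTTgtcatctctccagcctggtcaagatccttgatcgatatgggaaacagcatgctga

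The nucleosome at 2514 bp held 59.6% A and T in its 141 bp, with 2 such runs, and the one at 2752 bp held 70.9%, with 4 runs. The stretch of lowest coverage held 77.0% A and T and 3 runs, the longest of 8 bases. The border fragment held 61.3% and 2 runs. Over the whole *FLC* target the median window of 141 bp held 67.4% A and T, and 65.7% of such windows contained AAAAA or TTTTT (52.7% of windows of 100 bp). A run of this kind is therefore common at *FLC*, and it is given here as a description of the sequence only.

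Each deposited value is the fraction of a library's *FLC* fragments of 100 to 150 bp that share a start and an end. The values of a library sum to 1, so every share below is relative to *FLC* as a whole. Totals of sequenced fragments are not given with them, so the depth is unknown and no counting interval is given. Errors are the spread between libraries. The stretch held 12952 to 19096 distinct fragments per library in *vrn1-4* FRI 1W cold, 9147 to 12029 in *vrn1-4* FRI warm, 7465 to 17072 in WT FRI 1W cold and 2125 to 14111 in WT FRI warm, where replicate 2 had the fewest. Across the positions of the stretch, midpoint profiles of 2 libraries correlated with a Pearson's r of 0.842 to 0.991 within a group (18 pairs) and of 0.703 to 0.972 between groups (73 pairs). These r values are a description, since neighbouring positions share fragments.

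The stretch held a smaller part of the *FLC* fragments in *vrn1-4* FRI than in WT FRI. Its share was 13.3, 13.8, 14.1 and 13.03% in the 4 *vrn1-4* FRI 1W cold libraries and 12.5, 13.04 and 12.5% in the 3 *vrn1-4* FRI warm libraries. It was 14.5, 16.0, 15.7 and 15.9% in WT FRI 1W cold and 14.9, 14.2 and 15.5% in WT FRI warm. Every *vrn1-4* FRI library lay below every WT FRI library, whichever the temperature. The means were 13.6 ± 0.471% (SD, n = 4) and 12.7 ± 0.309% (SD, n = 3) in *vrn1-4* FRI cold and warm, against 15.5 ± 0.680% (SD, n = 4) and 14.8 ± 0.643% (SD, n = 3) in WT FRI. A lower mean share in *vrn1-4* FRI was not particular to the stretch. The rest of intron 1 held 21.3 ± 1.14% (SD, n = 4) and 20.9 ± 1.03% (SD, n = 3) in *vrn1-4* FRI cold and warm. In WT FRI it held 23.6 ± 0.768% (SD, n = 4) and 22.1 ± 0.916% (SD, n = 3), and the genotypes overlapped there in the warm.

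Comparisons over both temperatures or both genotypes were added after seeing the data. Averaged over both temperatures the difference between the genotypes in the share of the stretch was -2.07 percentage points. It had the smallest p that 1400 arrangements within temperatures allow (exact permutation test, two-sided, p = 0.00143, adjusted p = 0.0286 over 35 tests of the stretch). Within the cold it was -1.98 points (exact permutation test, p = 0.0286, adjusted p = 0.0625) and within the warm -2.16 points (exact permutation test, p = 0.1), each with the smallest p its design allows. Differences with cold were smaller. The share was higher after cold by 0.869 points in *vrn1-4* FRI (exact permutation test, p = 0.0857) and by 0.689 points in WT FRI (exact permutation test, p = 0.229), and neither exceeded the spread. Over both genotypes the difference of 0.779 points had p = 0.0269 (exact permutation test) and an adjusted p of 0.0625. A test of whether this change depended on the genotype found no such dependence beyond the spread (*vrn1-4* FRI minus WT FRI, 0.180 points, permutation of genotype labels within temperatures, p = 0.893). With both borders moved 50 bp inwards the cold difference in *vrn1-4* FRI became 1.55 points (exact permutation test, p = 0.0286) and with only fragments lying entirely inside 1.51 points (the same p); the inward borders leave out the centre at 3758 bp described below.

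Per base pair, no difference in fragments between the stretch and the rest of *FLC* was detected over all libraries. The log2 ratio of its density to that of the rest was -0.11 ± 0.0579 (SD, n = 4) in *vrn1-4* FRI 1W cold and -0.22 ± 0.0400 (SD, n = 3) in *vrn1-4* FRI warm, below 0 in all 7 libraries. It was 0.12 ± 0.0760 (SD, n = 4) in WT FRI 1W cold and 0.04 ± 0.0735 (SD, n = 3) in WT FRI warm, above 0 in 6 of 7 libraries. Over all 14 libraries the mean was -0.04 (exact sign-flip permutation test, p = 0.333). When every distinct fragment had the same weight, this ratio was 0.09 and lay above 0 (exact sign-flip permutation test, p = 0.000122, the smallest it can give), so the direction depends on the weighting.

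**Figure D1:**
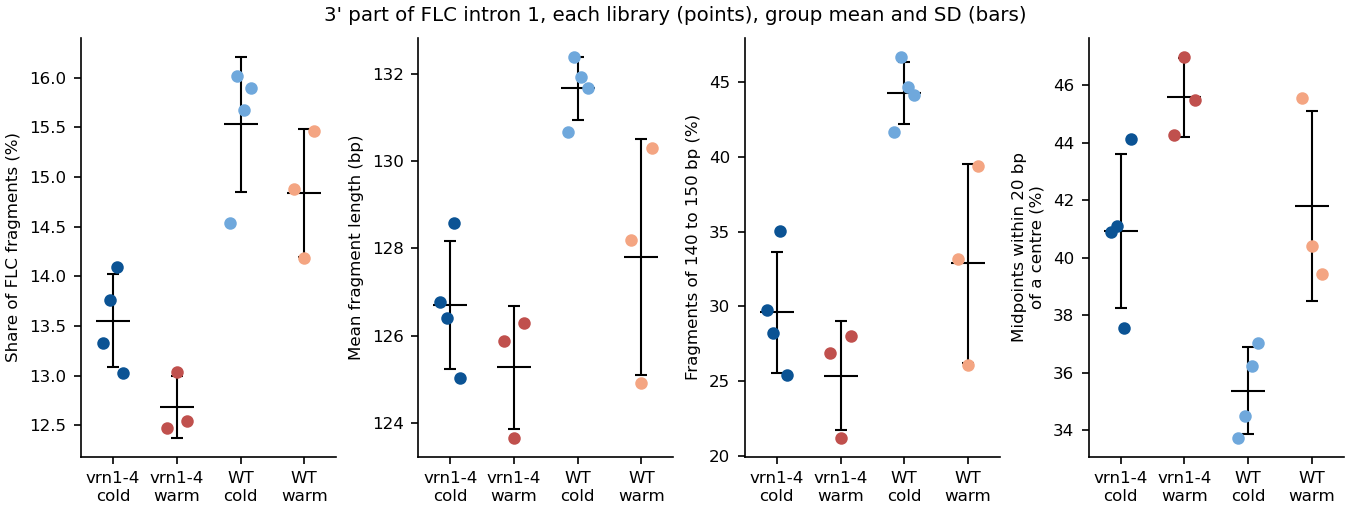
Each point is 1 library, with the group mean and SD as bars: the share of *FLC* fragments in the stretch (%), their mean length (bp), the percentage of 140 to 150 bp and the percentage of midpoints within 20 bp of a nucleosome centre. All 7 *vrn1-4* FRI libraries lie below all 7 WT FRI libraries in the first panel, at 12.5 to 14.1% against 14.2 to 16.0%; the vertical axes do not start at 0.

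Over both temperatures fragments of the stretch were shorter in *vrn1-4* FRI, and over both genotypes they were longer after cold. Both comparisons were added after seeing the data. The mean length was 126.8, 126.4, 128.6 and 125.0 bp in *vrn1-4* FRI 1W cold and 125.9, 123.7 and 126.3 bp in *vrn1-4* FRI warm. It was 130.7, 132.4, 131.9 and 131.7 bp in WT FRI 1W cold and 128.2, 124.9 and 130.3 bp in WT FRI warm. The 4 WT FRI cold libraries were longer than all others, while WT FRI warm replicates 1 and 2 lay within the range of the *vrn1-4* FRI libraries. *vrn1-4* FRI minus WT FRI was -3.76 bp over both temperatures (exact permutation test within temperatures, p = 0.00429, adjusted p = 0.0286). The difference between cold and warm was 2.64 bp over both genotypes (exact permutation test within genotypes, p = 0.00816, adjusted p = 0.0357).

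By single comparisons, *vrn1-4* FRI minus WT FRI was -4.98 bp in the cold (exact permutation test, p = 0.0286, adjusted p = 0.0625). In the warm it was -2.54 bp and did not pass (exact permutation test, p = 0.3, where 3 against 3 libraries cannot go below 0.1), with -3.98 to -1.29 bp when 1 library was left out (without WT FRI warm replicate 2 and 3). WT FRI fragments were 3.86 bp longer after cold (exact permutation test, p = 0.0286, adjusted p = 0.0625). Without WT FRI warm replicate 2 this was 2.42 bp (exact permutation test, p = 0.0667, the smallest that 2 against 4 libraries allow). In *vrn1-4* FRI the difference with cold was 1.42 bp (exact permutation test, p = 0.314). A dependence of this change on the genotype was not found beyond the spread. *vrn1-4* FRI minus WT FRI was -2.44 bp (permutation of genotype labels within temperatures, p = 0.403), and -7.18 points for fragments of 140 bp or longer (the same test, p = 0.374). The share of fragments of 140 bp or longer, close to the full wrap of a nucleosome, was 29.6 ± 4.06% (SD, n = 4) in *vrn1-4* FRI 1W cold and 25.4 ± 3.64% (SD, n = 3) in *vrn1-4* FRI warm, against 44.3 ± 2.06% (SD, n = 4) in WT FRI 1W cold and 32.9 ± 6.67% (SD, n = 3) in WT FRI warm. Fragments under 120 bp took 35.3 ± 3.32% in *vrn1-4* FRI 1W cold and 38.5 ± 3.60% in *vrn1-4* FRI warm, against 25.3 ± 1.59% in WT FRI 1W cold and 33.9 ± 7.51% in WT FRI warm (SD, same n). The single most frequent length was 145 to 147 bp in 12 libraries and 103 bp in *vrn1-4* FRI 1W cold replicate 4 and *vrn1-4* FRI warm replicate 2.

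The rest of the gene differed in length in the same direction. The rest of *FLC* averaged 128.2 ± 1.30 bp (SD, n = 4) in *vrn1-4* FRI 1W cold, 126.6 ± 1.69 bp (SD, n = 3) in *vrn1-4* FRI warm, 132.6 ± 0.492 bp (SD, n = 4) for WT FRI 1W cold and 128.3 ± 2.66 bp (SD, n = 3) in WT FRI warm. The stretch was shorter than the rest of *FLC* in all 14 libraries. Its length minus that of the rest was -1.54 ± 0.238 bp (SD, n = 4) in *vrn1-4* FRI 1W cold, -1.34 ± 0.290 bp (SD, n = 3) in *vrn1-4* FRI warm, -0.911 ± 0.244 bp (SD, n = 4) for WT FRI 1W cold and -0.495 ± 0.0515 bp (SD, n = 3) for WT FRI warm. This measure was added after seeing the data and was lower in *vrn1-4* FRI, with a difference of -0.738 bp over both temperatures (exact permutation test within temperatures, p = 0.00286, adjusted p = 0.0286). With each distinct fragment counted once the same difference was 0.0856 bp, in the other direction.

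Bin by bin, the length moved along the whole stretch. In WT FRI all 14 bins of 100 bp (87 bp at exon 2) were longer after cold, by 3.11 to 5.07 bp (limma with Benjamini-Hochberg adjustment over the 96 bins of *FLC*), where 91.7% of all bins were called. In *vrn1-4* FRI against WT FRI after cold all 14 were shorter, with differences from -3.12 to -7.67 bp, where 92.7% of all bins were called. The standard error was the same in each of the 14 bins, at 1.49 bp with cold in WT FRI and 1.38 bp between the genotypes in the cold. The rest of *FLC* moved in the same direction, so the 14 calls are not separate findings. For the mean length of the stretch, both comparisons had an adjusted p of 0.0625 by the exact permutation test. Of the 14, 1 was shorter in *vrn1-4* FRI against WT FRI in the warm (4.17% of all bins called), from 3176149 to 3176248, and 0 of 14 were called for cold against warm in *vrn1-4* FRI by limma (1.04% of all bins called, 2 of 14 with an unadjusted p under 0.05). The difference between the genotypes in the change with cold was below 0 in all 14 bins. By limma 0 of 14 were called (2 of all 96 bins), and 0 of 14 had an unadjusted p under 0.05. Without WT FRI warm replicate 2, the WT FRI count with cold was 2 bins and the count in the warm between genotypes was 8. The warm count was 2 without *vrn1-4* FRI 1W cold replicate 3 or 4 and 0 in 10 of the other fits with 1 library left out. The longest fragments stood where coverage was lowest, at 134.5 ± 1.83 bp (SD, n = 4) in *vrn1-4* FRI 1W cold, 134.5 ± 1.58 bp (SD, n = 3) in *vrn1-4* FRI warm, 138.2 ± 0.197 bp (SD, n = 4) for WT FRI 1W cold and 134.5 ± 3.30 bp (SD, n = 3) in WT FRI warm for the bin from 3175849 to 3175948.

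The smoothed midpoint profile of all groups had 6 maxima in the stretch, of the 35 found along *FLC*. These maxima are called nucleosome centres, or nucleosomes, here. Whether each is a separate peak in every group was not tested. The centres lay 2514, 2752, 2854, 3220, 3338 and 3758 bp from the TSS (3176934, 3176696, 3176594, 3176228, 3176110 and 3175690 on chromosome 5), 102 to 420 bp apart. The first and the last were the highest, with heights of 3.78 and 2.98 times the mean of *FLC*, ranks 6 and 9 of 35. The other 4 stood at 1.29 to 2.04 times the mean. The members of the 2 closest pairs were 102 and 118 bp apart, less than the 150 bp of the longest fragments. The most frequent midpoint, after averaging over 11 bp, lay between 3334 and 3349 bp in the 14 libraries at the centre at 3338 bp and between 3744 and 3762 bp at the one at 3758 bp. It varied more at the other centres, from 2504 to 2533 bp at 2514 bp, from 2717 to 2751 bp at 2752 bp, from 2820 to 2854 bp at 2854 bp and from 3200 to 3251 bp at 3220 bp. At 2514 bp it was 2533 bp in each *vrn1-4* FRI warm library and 2504, 2504, 2504 and 2514 bp in *vrn1-4* FRI 1W cold. There it was 2515, 2514 and 2504 bp in WT FRI warm and 2533, 2504, 2504 and 2504 bp in WT FRI 1W cold.

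**Figure D2:**
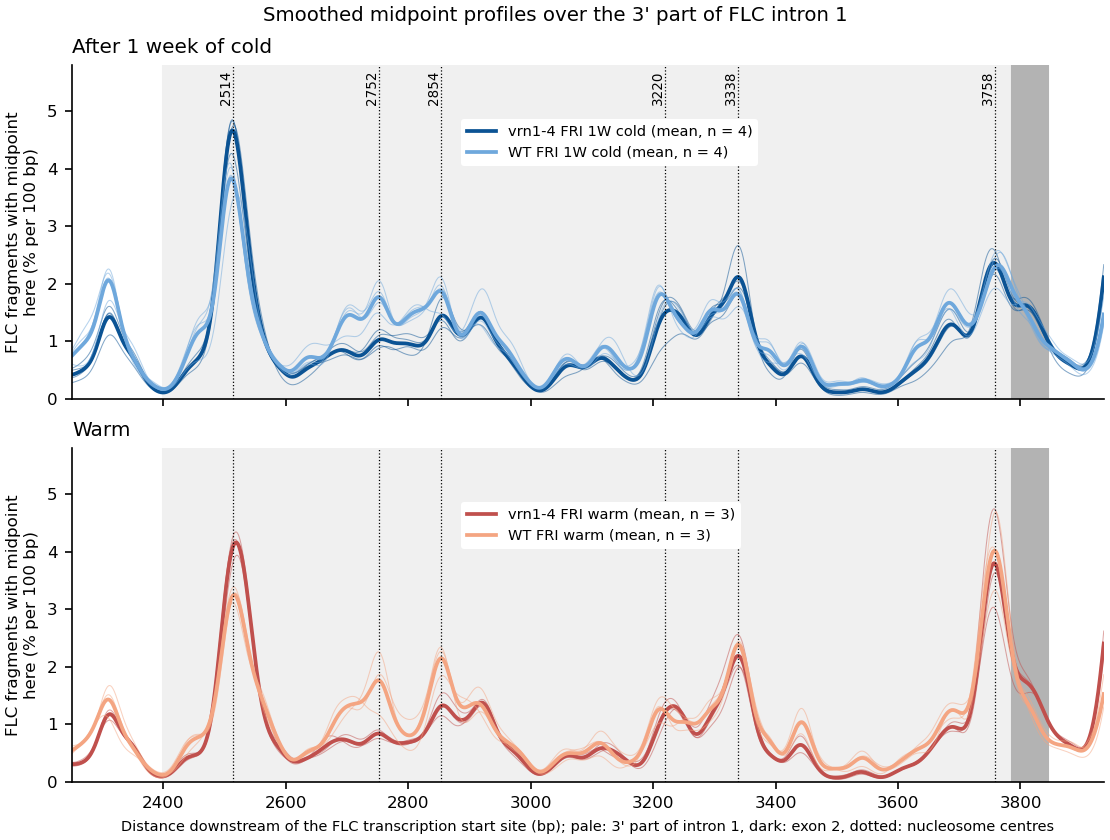
The percentage of *FLC* fragments with midpoints at each distance from the TSS, per 100 bp after smoothing (SD of 15 bp), for *vrn1-4* FRI and WT FRI in the cold (top) and in the warm (bottom); thick lines are group means, thin lines libraries. The peak at 2514 bp is higher in *vrn1-4* FRI and the profile around 2752 and 2854 bp is higher in WT FRI at both temperatures, and the peak at 3758 bp is lower in both cold groups.

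*vrn1-4* FRI had more fragments than WT FRI at the first centre and fewer at the next 2, in the cold and in the warm. Within 40 bp of the centre at 2514 bp lay 2.73, 2.62, 2.41 and 2.70% of *FLC* fragments in *vrn1-4* FRI 1W cold and 2.51, 2.31 and 2.53% in *vrn1-4* FRI warm. The same window held 2.04, 2.21, 2.18 and 2.07% in WT FRI 1W cold and 1.84, 1.85 and 1.95% in WT FRI warm. No *vrn1-4* FRI library overlapped a WT FRI library. The log2 difference was 0.30 (SE 0.0701, adjusted p = 0.00387) in the cold and 0.38 (SE 0.0809, adjusted p = 0.00284) in the warm, by limma with Benjamini-Hochberg adjustment over the 35 centres.

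At 2752 bp the order was turned round. This position had the fewest fragments of the 6 in *vrn1-4* FRI, at 0.729% in 1W cold and 0.576% in warm. In WT FRI it did not, since 1.15% lay at 3338 bp against 1.18% here in 1W cold, and 0.875% at 3220 bp against 1.15% here in warm. Its window held 0.646, 0.827, 0.795 and 0.649% in *vrn1-4* FRI 1W cold and 0.537, 0.586 and 0.605% in *vrn1-4* FRI warm. It held 1.04, 1.16, 1.24 and 1.27% in WT FRI 1W cold and 1.34, 0.923 and 1.19% in WT FRI warm. Again the genotypes did not overlap. The log2 difference was -0.69 (SE 0.122, adjusted p = 0.000919) in the cold and -0.97 (SE 0.141, adjusted p = 0.000309) in the warm by limma, a share 0.621 and 0.510 times that of WT FRI on the log2 scale with its pseudocount. At 2854 bp the share was 0.958 ± 0.101% (SD, n = 4) in *vrn1-4* FRI 1W cold and 0.895 ± 0.106% (SD, n = 3) in *vrn1-4* FRI warm, against 1.25 ± 0.0737% (SD, n = 4) in WT FRI 1W cold and 1.31 ± 0.0915% (SD, n = 3) in WT FRI warm. The log2 difference there was -0.38 (SE 0.0970, adjusted p = 0.00501) in the cold and -0.55 (SE 0.112, adjusted p = 0.00284) in the warm by limma.

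These 3 of 6 centres were called in the cold, where 48.6% of the 35 *FLC* centres were, and the same 3 of 6 in the warm, where 34.3% were, so nothing particular to the stretch is read from the counts. They were called in each of the 14 fits that left out 1 library. With each distinct fragment counted once, 0 of the 6 were called by limma at either temperature. The remaining centres, at 3220, 3338 and 3758 bp, did not pass between genotypes, with log2 differences of -0.24, 0.19 and -0.02 in the cold and -0.08, -0.08 and -0.12 in the warm.

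With cold, the calls lay at other centres. At 3758 bp, where the nucleosome reaches over the border into exon 2, the window held 1.39, 1.48, 1.33 and 1.58% in *vrn1-4* FRI 1W cold, against 1.75, 2.67 and 2.01% in *vrn1-4* FRI warm. It held 1.23, 1.44, 1.59 and 1.61% in WT FRI 1W cold, against 2.56, 2.41 and 1.94% in WT FRI warm. Cold libraries were below warm libraries in both genotypes without overlap. The log2 change was -0.65 in WT FRI (SE 0.146, adjusted p = 0.0176 by limma) and -0.55 in *vrn1-4* FRI (SE 0.146, adjusted p = 0.0805 by limma), so the threshold was passed in WT FRI alone, and the difference between the genotypes in this change was 0.10 (adjusted p = 0.828 by limma). In WT FRI the call was lost without WT FRI warm replicate 1 (adjusted p = 0.0765 by limma), WT FRI warm replicate 2 (adjusted p = 0.0695) or WT FRI 1W cold replicate 2 (adjusted p = 0.0505).

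The centre at 3220 bp had 1.09, 1.22, 1.22 and 1.25% in WT FRI 1W cold, against 0.826, 0.794 and 1.00% in WT FRI warm. The groups did not overlap and the log2 change was 0.46 (SE 0.151, adjusted p = 0.048 by limma), but the call was lost in 9 of 14 fits with 1 library left out, with an adjusted p of up to 0.208 without WT FRI warm replicate 2. In *vrn1-4* FRI it had 1.10, 1.14, 1.16 and 0.717% in the cold, against 0.753, 0.819 and 0.909% in the warm, with replicate 4 of the cold below all warm libraries (log2 change 0.29, adjusted p = 0.295 by limma). Of the 6 centres, 2 were called for cold against warm in WT FRI (22.9% of the 35 centres) and 0 in *vrn1-4* FRI (0% of them, with 2 of 6 at an unadjusted p under 0.05). Neither WT FRI call held with each distinct fragment counted once (by limma, adjusted p = 0.0675 at 3758 bp and 0.0689 at 3220 bp). Leaving out *vrn1-4* FRI 1W cold replicate 4 gave 2 calls in *vrn1-4* FRI, and leaving out *vrn1-4* FRI warm replicate 1 or WT FRI 1W cold replicate 1 gave 1.

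**Figure D3:**
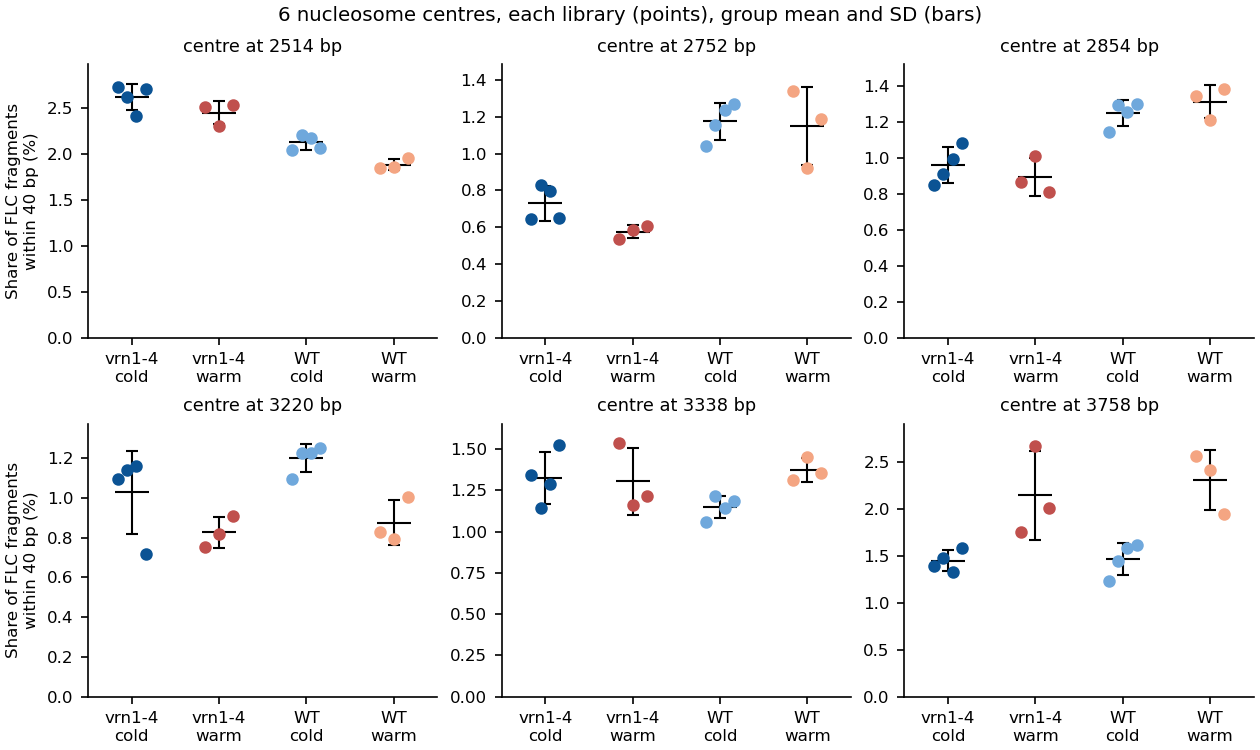
Percentage of *FLC* fragments with midpoints within 40 bp of each of the 6 nucleosome centres, with 1 point per library and the group mean and SD as bars; each panel has its own axis from 0. *vrn1-4* FRI is above WT FRI at 2514 bp and below it at 2752 and 2854 bp, and at 3758 bp the cold groups, at 1.44 and 1.47%, are below the warm groups, at 2.14 and 2.30%.

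The bins showed how far the genotype difference reached between the centres. Between the genotypes 8 of the 14 bins differed in the cold, 7 of them lower in *vrn1-4* FRI, and 7 differed in the warm, 6 of them lower (limma on log2(share + 0.0001), Benjamini-Hochberg adjustment over 96 bins). Over all of *FLC* 44.8% of bins were called in the cold and 40.6% in the warm, and 30.2% were called as lower at each temperature. The median log2 difference of the 14 bins was -0.29 in the cold and -0.21 in the warm, beside -0.14 and -0.11 over all 96 bins. With each library centred on its own median bin, which removes this shift, 5 bins were called in the cold (4 lower) and 4 in the warm (3 lower).

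The deepest differences lay in the stretch of lowest coverage and around the nucleosome at 2752 bp. The bin from 3175849 to 3175948 (3500 to 3599 bp from the TSS) held 0.126, 0.147, 0.183 and 0.0912% of *FLC* fragments in *vrn1-4* FRI 1W cold and 0.0883, 0.112 and 0.139% in *vrn1-4* FRI warm. It held 0.260, 0.318, 0.259 and 0.254% in WT FRI 1W cold and 0.334, 0.186 and 0.332% in WT FRI warm. The genotypes were separate, with WT FRI warm replicate 2 closest to the mutant. The log2 difference was -0.98 (SE 0.210, adjusted p = 0.00345) in the cold and -1.23 (SE 0.243, adjusted p = 0.00195) in the warm by limma.

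The bin from 3176649 to 3176748 (2700 to 2799 bp) held 0.823, 1.02, 1.00 and 0.787% in *vrn1-4* FRI 1W cold and 0.682, 0.711 and 0.764% in *vrn1-4* FRI warm. It held 1.26, 1.49, 1.56 and 1.59% in WT FRI 1W cold and 1.55, 1.10 and 1.44% in WT FRI warm. The separation was complete here too, and the log2 difference was -0.70 (SE 0.126, adjusted p = 0.00199) in the cold and -0.90 (SE 0.145, adjusted p = 0.000681) in the warm by limma. Its neighbour from 3176549 to 3176648 had -0.39 in the cold and -0.49 in the warm, less deep than some of the bins given next. These 3 bins were called at both temperatures in every fit that left out 1 library, but the last of them was not called at either temperature after centring.

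The other bins lower in *vrn1-4* FRI at both temperatures were those from 3176749 to 3176848 (log2 differences of -0.34 and -0.41 in cold and warm), 3175949 to 3176048 (-0.36 and -0.67) and 3175749 to 3175848 (-0.49 and -0.43). In the cold the bin from 3176249 to 3176348 was lower as well (-0.59, adjusted p = 0.00551 by limma), while its difference of -0.23 in the warm did not pass. A single bin was higher in *vrn1-4* FRI, from 3176849 to 3176948 around the nucleosome at 2514 bp, by 0.24 at both temperatures (adjusted p = 0.021 and 0.0457 by limma). In the cold, this bin and the ones from 3176749 and 3175949 lost their calls in 2, 2 and 5 of 14 fits with 1 library left out. In the warm, the bins from 3176749, 3175749 and 3176849 lost theirs in 3, 11 and 10 fits. The warm count was 4 without *vrn1-4* FRI warm replicate 1 or replicate 3, and the cold count 5 without *vrn1-4* FRI 1W cold replicate 1. With each distinct fragment counted once, 0 of the 14 bins were called in the cold and 1 in the warm.

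**Figure D4:**
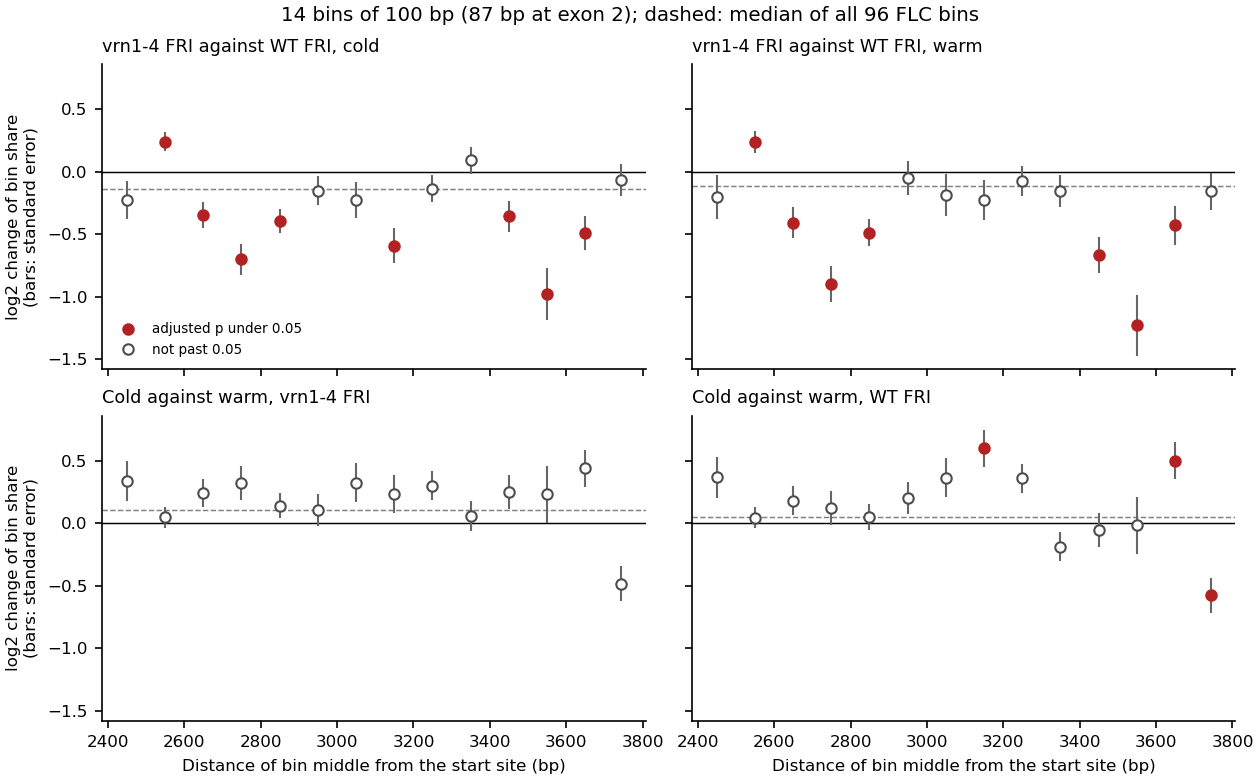
Log2 change of the share of each of the 14 bins (standard error as bars) against its distance from the TSS, for *vrn1-4* FRI against WT FRI (top) and for cold against warm (bottom); filled points passed an adjusted p of 0.05 and the dashed line is the median of all 96 *FLC* bins. The bins from 3175849 (-0.98 in the cold, -1.23 in the warm) and 3176649 (-0.70 and -0.90) lie lowest in both upper panels, and the bin at exon 2 is the only one below 0 in both lower panels, at -0.49 in *vrn1-4* FRI and -0.58 in WT FRI.

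The genotype differences of the 2 temperatures rest on separate libraries. Across the 14 bins they had the same sign in 13 and a Pearson's r of 0.885, given as a description since neighbouring bins share fragments. The A and T content of a bin correlated with its genotype difference (log2) with r = -0.934 in the cold and -0.895 in the warm over the 14 bins (-0.778 and -0.794 over the 96 bins of *FLC*). The most A and T rich bin, at 77.0%, was the one that was lowest in *vrn1-4* FRI, and the least rich, at 62.0%, was the only one called as higher. A and T content also correlated with the mean log2 share of the 14 bins (r = -0.739). Its correlation with the log2 change with cold was positive, at r = 0.361 in *vrn1-4* FRI and 0.133 in WT FRI over the 14 bins (0.650 and 0.345 over the 96 bins). After cold, fragments were shorter in *vrn1-4* FRI in 92.7% of the 96 bins, while in the warm 4.17% of bins were called for length. The part of base composition, of the extent of digestion and of the genotype in the differences of bin share was not tested.

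**Figure D5:**
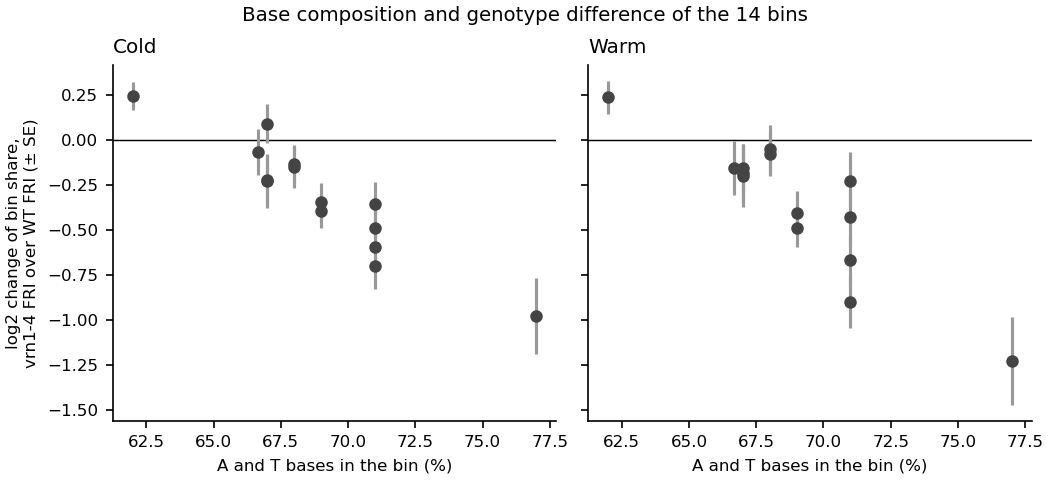
Log2 difference of the share of each of the 14 bins in *vrn1-4* FRI over WT FRI (standard error as bars) against the percentage of A and T bases in the bin, in the cold (left) and in the warm (right). Differences go from 0.24 at 62.0% A and T to -0.98 in the cold and -1.23 in the warm at 77.0%.

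In response to cold, 3 of the 14 bins were called in WT FRI, where 9.38% of all *FLC* bins were. The bin next to exon 2 (3175662 to 3175748) held 1.33, 1.67, 1.73 and 1.78% in WT FRI 1W cold, against 2.62, 2.53 and 2.11% in WT FRI warm, and fell by 0.58 on the log2 scale (SE 0.140, adjusted p = 0.0397 by limma). Its neighbour (3175749 to 3175848) held 1.01, 1.23, 1.13 and 1.17% in WT FRI 1W cold, against 0.758, 0.756 and 0.883% in WT FRI warm, and rose by 0.50 (SE 0.149, adjusted p = 0.0478 by limma). The bin from 3176249 to 3176348 held 0.728, 0.796, 0.821 and 0.800% in WT FRI 1W cold, against 0.498, 0.395 and 0.692% in WT FRI warm, and rose by 0.60 (SE 0.150, adjusted p = 0.0397 by limma). Cold and warm libraries did not overlap in any of these 3 bins.

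The 3 calls rested on single libraries. The count was 0 without WT FRI warm replicate 1 or 2, without WT FRI 1W cold replicate 2, 3 or 4, and also without *vrn1-4* FRI warm replicate 3 or *vrn1-4* FRI 1W cold replicate 1 or 2, which enter through the shared estimate of the spread. In *vrn1-4* FRI 0 of 14 bins were called by limma (0% of all 96, of which 14 had an unadjusted p under 0.05). The 3 bins with the smallest p there were the one at exon 2 (log2 change -0.49, adjusted p = 0.142), its neighbour (0.44, adjusted p = 0.176) and the one from 3176149 to 3176248 (0.30, adjusted p = 0.176). Without *vrn1-4* FRI 1W cold replicate 4 or WT FRI 1W cold replicate 1 the count was 2. For the difference between the genotypes in the change with cold, 0 of 14 bins were called by limma and 0 had an unadjusted p under 0.05.

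The mean midpoint lay nearer to the TSS after cold in WT FRI at 2 centres. The mean midpoint within 60 bp of the centre at 2854 bp was 2850.6, 2850.5, 2850.6 and 2850.4 bp in WT FRI 1W cold, against 2855.7, 2863.1 and 2856.8 bp in WT FRI warm, a change of -8.03 bp (SE 1.69, adjusted p = 0.00372 by limma). Cold libraries agreed within less than 1 bp and lay nearer to the TSS than all warm libraries. In the overlapping window at 2752 bp the mean midpoint moved the other way (4.81 bp, SE 2.06, adjusted p = 0.0964 by limma). The most frequent midpoint near 2854 bp was 2854, 2852 and 2851 bp in WT FRI warm. In WT FRI 1W cold it was 2820, 2851, 2851 and 2851 bp. Whether a nucleosome moved was not tested. At 2514 bp the mean midpoint was 2518.6, 2509.7, 2509.2 and 2510.3 bp in WT FRI 1W cold, against 2519.0, 2518.9 and 2517.2 bp in WT FRI warm (-6.42 bp, SE 1.92, adjusted p = 0.0281 by limma). Replicate 1 of the cold stayed among the warm libraries. Without WT FRI warm replicate 1 or 2 or WT FRI 1W cold replicate 2, 3 or 4 only 1 of 2 differences was called. These were 2 of 6 centres, beside 22.9% of the 35. In *vrn1-4* FRI the mean midpoint at 2514 bp was 2515.15, 2514.35, 2513.85 and 2517.71 bp in the cold, against 2519.08, 2519.84 and 2519.63 bp in the warm (-4.25 bp, adjusted p = 0.34 by limma). At 2854 bp its change was -2.58 bp (adjusted p = 0.34 by limma). The difference between the genotypes in this change was 2.16 bp at 2514 bp and 5.46 bp at 2854 bp (adjusted p = 0.836 and 0.528 by limma).

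After cold the midpoints of *vrn1-4* FRI lay farther from the TSS than those of WT FRI at 2 centres, beside 34.3% of the 35. At 2854 bp the mean midpoint was 2855.9 ± 2.25 bp in *vrn1-4* FRI 1W cold and 2850.5 ± 0.0941 bp in WT FRI 1W cold (SD, n = 4 each), a difference of 5.39 bp (SE 1.56, adjusted p = 0.0158 by limma). At 3220 bp it was 3229.6 ± 2.61 bp in *vrn1-4* FRI 1W cold and 3223.4 ± 4.22 bp in WT FRI 1W cold (SD, n = 4 each), a difference of 6.23 bp (SE 2.05, adjusted p = 0.0246 by limma). With each distinct fragment counted once the difference at 2854 bp was 0.749 bp (adjusted p = 0.712 by limma), while the one at 3220 bp was still called. With replicates 1 to 3 of each group alone neither was called (4.31 bp and 4.61 bp, adjusted p = 0.103 and 0.170 by limma, and 0.0891 and 0.0969 with a replicate block). The count was 4 without WT FRI 1W cold replicate 1 and 1 without any other WT FRI 1W cold replicate or without *vrn1-4* FRI 1W cold replicate 1 or 4. For *vrn1-4* FRI against WT FRI in the warm 0 of 6 centres were called by limma (20% of the 35, 1 of 6 with an unadjusted p under 0.05, and 1 call without WT FRI warm replicate 3, *vrn1-4* FRI warm replicate 3 or WT FRI 1W cold replicate 1), and for cold against warm in *vrn1-4* FRI 0 of 6 (0% of the 35, 1 of 6 with an unadjusted p under 0.05, and 1 call without WT FRI 1W cold replicate 1). The windows of the pairs at 2752 and 2854 bp and at 3220 and 3338 bp overlap.

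In WT FRI the midpoints were spread more widely around most of the 6 centres after cold. The SD of the midpoints within 60 bp of a centre was higher after cold in WT FRI at 4 of 6 centres, beside 17.1% of the 35, by 3.71 bp at 2752, 3.80 bp at 2854, 3.47 bp at 3338 and 4.82 bp at 3758 bp (adjusted p = 0.0157, 0.0161, 0.0161 and 0.00323 by limma). At 3758 bp it was 31.6, 31.8, 30.4 and 30.7 bp in WT FRI 1W cold, against 24.6, 25.7 and 28.5 bp in WT FRI warm. The same centre was wider after cold in *vrn1-4* FRI, at 31.1, 29.7, 31.0 and 29.5 bp in the cold, against 27.8, 24.99 and 26.2 bp in the warm (3.97 bp, adjusted p = 0.0208 by limma), the 1 call of 6 in that comparison, where 2.86% of the 35 were called. In both genotypes all cold libraries were above all warm ones at this centre. In *vrn1-4* FRI the count was 0 without warm replicate 2 or 3 or cold replicate 1 or 3 and 2 without cold replicate 4, and in WT FRI it was 1 without WT FRI warm replicate 1 and 2 without WT FRI warm replicate 2. For the difference between the genotypes in the change of spread with cold, 0 of 6 centres were called by limma (0 of the 35, 1 of 6 with an unadjusted p under 0.05). The windows at 2752 and 2854 bp overlap, and the fixed width of a window limits how large the SD can be.

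Between the genotypes, the nucleosome at 2514 bp had less widely spread midpoints in *vrn1-4* FRI when fragments carried their deposited weights. The SD of its midpoints was 22.6, 22.1, 23.8 and 22.6 bp in *vrn1-4* FRI 1W cold and 22.2, 21.9 and 21.8 bp in *vrn1-4* FRI warm, against 24.4, 26.7, 27.4 and 27.0 bp in WT FRI 1W cold and 26.6, 27.4 and 25.9 bp in WT FRI warm. The genotypes did not overlap, with differences of -3.61 bp in the cold and -4.68 bp in the warm (adjusted p = 0.0046 and 0.00138 by limma). With each distinct fragment counted once these differences were -1.08 bp and -0.40 bp (adjusted p = 0.334 and 0.693 by limma), and 0 of 6 centres were called by spread between genotypes at either temperature. In the cold the centre at 3338 bp was narrower in the mutant as well (-3.30 bp, adjusted p = 0.0227 by limma). In the warm the centre at 3220 bp was narrower (-4.01 bp, adjusted p = 0.0163 by limma) and the one at 2752 bp wider (3.38 bp, adjusted p = 0.0204 by limma). These were 2 of 6 centres in the cold, beside 28.6% of the 35, and 3 of 6 in the warm, beside 22.9%. The cold count was 1 without WT FRI 1W cold replicate 2 or 3 or *vrn1-4* FRI 1W cold replicate 1, and the warm count was 1 without *vrn1-4* FRI warm replicate 3.

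Over the whole stretch, 40.9 ± 2.69% (SD, n = 4) of midpoints lay within 20 bp of a centre in *vrn1-4* FRI 1W cold and 45.6 ± 1.36% (SD, n = 3) in *vrn1-4* FRI warm, against 35.4 ± 1.52% (SD, n = 4) in WT FRI 1W cold and 41.8 ± 3.30% (SD, n = 3) in WT FRI warm. In comparisons added after seeing the data, this concentration was higher in *vrn1-4* FRI by 4.67 percentage points over both temperatures (exact permutation test within temperatures, p = 0.00714, adjusted p = 0.0357). It was lower after cold by 5.55 points over both genotypes (difference of -5.55, exact permutation test within genotypes, p = 0.00163, adjusted p = 0.0286). With each distinct fragment counted once the genotype difference was -0.0207 points. Fragment length differed in the opposite direction in both comparisons, and its part in the concentration was not tested.

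Single fragments were rare. The most frequent distinct fragment at the nucleosome at 2514 bp ran from 3176879 to 3176980 (102 bp). It made up 0.0854 ± 0.0173% of *FLC* fragments in *vrn1-4* FRI 1W cold (SD, n = 4) and 0.0627 ± 0.00827% in *vrn1-4* FRI warm (SD, n = 3), against 0.0637 ± 0.0149% in WT FRI 1W cold (SD, n = 4) and 0.0670 ± 0.00927% in WT FRI warm (SD, n = 3). The ranges of the groups overlapped, and the fragment was the most frequent of its window in 6 of 14 libraries. Its midpoint lay 2518.5 bp from the TSS.

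At the border with exon 2 the most frequent fragment, whose sequence is printed above, was 142 bp long and reached into exon 2. It made up 0.0383, 0.0385, 0.0250 and 0.0381% of *FLC* fragments in *vrn1-4* FRI 1W cold, against 0.0445, 0.0713 and 0.0867% in *vrn1-4* FRI warm. It made up 0.0273, 0.0389, 0.0323 and 0.0290% in WT FRI 1W cold, against 0.0728, 0.0773 and 0.0647% in WT FRI warm. Cold libraries lay below warm libraries in both genotypes, as for the centre as a whole. The most frequent fragment at 3338 bp ran from 3176045 to 3176176 (132 bp) and made up 0.0299 ± 0.00672% in *vrn1-4* FRI 1W cold (SD, n = 4), 0.0238 ± 0.00628% in *vrn1-4* FRI warm (SD, n = 3), 0.0293 ± 0.0114% in WT FRI 1W cold (SD, n = 4) and 0.0554 ± 0.0164% in WT FRI warm (SD, n = 3). All 3 were found in 14 of 14 libraries. No test was run on single fragments.

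The 100 bp of lowest coverage, printed above, were covered by 0.259 ± 0.0624% of *FLC* fragments per base in *vrn1-4* FRI 1W cold (SD, n = 4), 0.199 ± 0.0268% in *vrn1-4* FRI warm (SD, n = 3), 0.469 ± 0.0406% in WT FRI 1W cold (SD, n = 4) and 0.443 ± 0.0698% in WT FRI warm (SD, n = 3). The nucleosome at 2514 bp was covered by 2.53 ± 0.0890% in *vrn1-4* FRI 1W cold, 2.31 ± 0.145% in *vrn1-4* FRI warm, 2.34 ± 0.151% in WT FRI 1W cold and 2.04 ± 0.0747% in WT FRI warm. The nucleosome at 2752 bp, whose sequence opens with 3 runs of A or T, was covered by 1.19 ± 0.135% in *vrn1-4* FRI 1W cold, 0.959 ± 0.0338% in *vrn1-4* FRI warm, 1.92 ± 0.137% in WT FRI 1W cold and 1.69 ± 0.273% in WT FRI warm.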

How the data were processed

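Nucleosomal DNA from MNase-treated nuclei was captured with baits for *FLC* and sequenced in pairs. The authors trimmed reads with fastp, aligned them to TAIR10 with Bowtie2 and used SAMtools 1.5, and deposited, for each distinct fragment of 100 to 150 bp in each library, the fraction of that library's *FLC* fragments it makes up. Whether PCR duplicates were removed is not given in the sources used here, so frequent fragments may count copies, and depth is unknown. The extent of digestion was not recorded per library and can change lengths and shares.

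Fractions were summed by midpoint into the stretch, into 96 bins of 100 bp and into windows of 40 bp (shares) or 60 bp (midpoints and their SD) on either side of 35 centres, the maxima of the mean profile smoothed with an SD of 15 bp and at least 100 bp apart. Bins and centres were tested with limma 3.58.1 (R 4.3.3) over the 14 libraries, shares as log2(share + 0.0001), which understates changes of low bins, called at an adjusted p (Benjamini-Hochberg) under 0.05. Measures of the stretch were compared by exact two-sided permutation tests (Python 3.11.15, numpy 2.4.6, pandas 2.3.3, scipy 1.17.1, figures with matplotlib 3.10.9). On simulated data for the bin shares of WT FRI cold against warm (96 bins, 20 sets, 20 changed bins, log2 change of 1), 96% of changed bins were recovered and 5.65% of calls were false. Bins were simulated as independent. The called bins of the stretch in this comparison changed less (-0.58, 0.50 and 0.60), and recovery at that size was not tested. P-values measure the spread between libraries labelled as biological replicates.

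Bins past the threshold in a comparison were named, or else the 3 with the smallest p; so were all called centres and the most frequent fragment of the 3 highest centres. The stretch, the lists and the named items were chosen with earlier results of these data known. Comparisons over both temperatures or both genotypes, and the length relative to the rest of *FLC*, were added after seeing the data. Alternatives were other bins, pseudocounts, filters, centring, smoothing, windows, borders, length limits, weighting, the replicate block and leaving out each library.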

Additional observations from a re-analysis of the deposited data

Results flagged for a closer look

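In 7 of 74 sets of 4 values examined, 1 library stood far from the other 3 by Dixon's criterion. Chance alone meets it in about 1 in 20 independent sets. These sets are measures of the same 1W cold libraries and share fragments, so they are not independent. *vrn1-4* FRI 1W cold replicate 4 was low at the centre at 3220 bp, with a share of 0.717% against 1.10 to 1.16% in the others, and had the narrowest midpoints at 2854 bp, with an SD of 30.8 bp against 33.6 to 33.9 bp. WT FRI 1W cold replicate 1 was set apart in 3 places. Its share was 1.09% at the centre at 3220 bp, against 1.22 to 1.25% in the others, and 0.594% in the bin from 3176949 to 3177048, against 0.990 to 1.04%, and its mean midpoint at the centre at 2514 bp was 2519 bp, against 2509 to 2510 bp. WT FRI 1W cold replicate 2 was high in the bin from 3175849 to 3175948, at 0.318% against 0.254 to 0.260%. WT FRI 1W cold replicate 4 was low in the bin from 3176849 to 3176948, at 2.08% against 2.16 to 2.17%.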

How the results depend on the processing

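Same-numbered libraries did not deviate together in any pair of groups throughout (9 of 19 same-numbered pairs correlated above 0.1, from -0.603 to 0.578; 21 of 54 differently numbered pairs did), so the replicate numbers were not taken as pairing. With a replicate block over replicates 1 to 3, exact tests of the stretch cannot go below p = 0.25. Block differences were, for *vrn1-4* FRI against WT FRI in the cold and over both temperatures, -1.68 and -1.92 points (share), -4.42 and -3.48 bp (length), -13.3 and -10.4 points (140 bp or longer), 5.03 and 4.41 points (concentration) and, over both temperatures, -0.727 bp (length minus rest of *FLC*). For cold against warm in WT FRI and over both genotypes they were 3.86 and 2.92 bp, 11.5 and 8.55 points, and -6.98 and -6.36 points in the same measures, and over both genotypes 0.806 points (share) and -0.293 bp (length minus rest). Calls with the block, and in brackets without it on the same libraries, were 3 (2) bins for *vrn1-4* FRI with cold, 4 (4) bins for the genotypes in the cold, 2 (2) centre shares for *vrn1-4* FRI with cold, 0 (0) midpoints and 0 (0) spreads for the genotypes in the cold and 2 (2) spreads for *vrn1-4* FRI with cold; bin lengths of the genotypes in the warm gave 3 with the block.

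Counting each distinct fragment once gave 0.0870 for the log2 density, and for the genotypes over both temperatures -0.0207 points (concentration) and 0.0856 bp (length minus rest), all in the opposite direction. So were the bins from 3175749 to 3175848 (0.0151 in the warm) and from 3176749 to 3176848 (0.0467 in the warm, 0.0127 in the cold). The concentration became -5.05 points with cold in WT FRI and 1.27 points for the genotypes in the cold, and the length minus rest with cold over both genotypes -0.00450 bp. Bins called were 0 with cold in WT FRI, 1 for the genotypes in the warm and 0 in the cold; 0 centre shares were called in each of these 3 comparisons, 0 bin lengths and 0 spreads for the genotypes in the warm, 0 spreads for the genotypes in the cold and for *vrn1-4* FRI with cold, and 1 midpoint for the genotypes in the cold. The cause was not tested.

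Bins called with cold in WT FRI were 0 with bins of 50 or 200 bp or starts moved by 50 bp, and 1 after centring. For the genotypes in the warm they were 12, 3 and 4 with bins of 50 bp, of 200 bp and after centring, and in the cold 4 with 200 bp and 5 after centring. Smoothing with 10 bp left 1 centre share with cold in WT FRI, and with 25 bp 1 midpoint for the genotypes in the cold. Fragments of 120 to 150 bp gave 0.690 points for the share with cold over both genotypes. Borders 50 bp inwards and fragments entirely inside gave 1.55 and 1.51 points for the share with cold in *vrn1-4* FRI, -0.783 and -0.690 bp for the length minus rest of the genotypes in the cold and -0.117 and -0.174 bp with cold over both genotypes. Within 15 bp of a centre the genotype concentration in the cold was 3.79 points.

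Leaving out 1 library gave, for cold against warm over both genotypes, 0.614 to 0.945 points (share) and -0.363 to -0.223 bp (length minus rest), and in WT FRI 2.42 to 5.11 bp (length), 8.00 to 14.7 points (140 bp or longer) and -7.62 to -4.55 points (concentration). For the genotypes in the cold it gave -2.31 to -1.80 points (share), 4.48 to 6.67 points (concentration) and -0.742 to -0.526 bp (length minus rest). Counts of calls ran, for *vrn1-4* FRI with cold, WT FRI with cold, the genotypes in the warm and the genotypes in the cold, from 0 to 2, 0 to 4, 4 to 7 and 5 to 9 (bins), 0 to 2 and 0 to 2 in the first pair (centre shares), 0 to 1, 1 to 3, 0 to 1 and 1 to 4 (midpoints) and 0 to 2, 1 to 4, 1 to 4 and 1 to 2 (spreads); for bin lengths they ran from 2 to 14 with cold in WT FRI and from 0 to 8 for the genotypes in the warm. Of the single bins and centres called, 35 of 69 lost the call with each distinct fragment counted once (3 of them in the opposite direction), 10 of 69 with the replicate block, 8 of 18 after centring, 2 of 18 with fragments of 120 to 150 bp, 1 of 18 with a pseudocount of 0.00001 and 1 of 18 with the compared groups fitted alone. Depth is unknown, so the limit it sets on small shares cannot be given.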
